A study of Mus musculus with 32 samples.

Results

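A run of 163 probe sets with neighbouring identifiers, 10563883 to 10564220, was described across blood and cerebellum of 2 mouse models of autism spectrum disorder. They were all of the probe sets on the Affymetrix Mouse Gene 1.0 ST array with an identifier from 10563880 to 10564220, out of 35556 in all, whatever their annotation. The run was chosen by measured intensities: its range was set around 2 of its probe sets that had already been seen to fall in the cerebellum of Tsc2 heterozygous mice, the 36th and the 161st in identifier order, called member 36 and member 161 here. For that reason every value of the run in the comparison of Tsc2+/- and wild-type (WT) cerebellum is given below as a description, with no test. Total RNA was profiled from 3 Tsc2+/- mice and 3 WT mice on a mixed 129/SvJae-C57BL/6J background, and from 5 Fmr1-KO mice and 5 WT mice congenic on C57BL/6. Each young adult mouse gave 1 cerebellum array and 1 blood array, 32 arrays in all. The Tsc2+/- mice kept 1 working Tsc2 allele, in every cell, and the Fmr1-KO mice lacked a working copy of Fmr1, the X-linked gene of fragile X syndrome, also in every cell. None of the mice was treated.

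Most annotated probe sets of the run are named for genes of a well-studied imprinted region, the mouse counterpart of the human Prader-Willi and Angelman region. In brain, the copy of this region inherited from the father is transcribed through Snurf and Snrpn into Snhg14, a very long non-coding host RNA. Introns of Snhg14 hold large tandem families of box C/D small nucleolar RNAs (snoRNAs), short RNAs that guide ribose methylation of other RNAs when bound to the proteins Fbl, Nop56, Nop58 and Snu13. Snrpn encodes SmN, a splicing protein of neurons, and Snurf lies upstream of it on the same messenger RNA. In neurons the host RNA also runs through Ube3a in antisense direction, and the paternal Ube3a copy is silent there.

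Of the 163 probe sets, 24 were annotated with Snord116l2, Snord116l1 and Gm26504 together, 3 copies of the Snord116 snoRNA. Probe set 10564211 was annotated with both Snurf and Snrpn. The first probe set, 10563883, carried the name of Depdc1a, and the last, 10564220, that of Gkap1. No gene name was given for the other 136 probe sets, which is 83.4% of the run, against 34.2% of all probe sets on the array. RefSeq (assembly GRCm38.p6) places Snrpn, Snhg14 and all 3 named snoRNAs on chromosome 7, with the snoRNAs inside Snhg14, and lists 206 snoRNA genes and no protein-coding gene between Ube3a and Snurf. It places Depdc1a on chromosome 3 and Gkap1 on chromosome 13. The deposited files name no genome build and give no positions, so no coordinate was assigned to a probe set and the unnamed probe sets were left without a gene name.

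To show where transcripts of this region start, 2 windows from RefSeq are given, each spanning 250 bases before to 50 bases after an annotated start, with CG dinucleotides in capitals. The first is the start shared by Snurf and Snrpn (GRCm38.p6 chr7:60005150-60005449, minus strand), and the second is the start that Snhg14 shares with a longer Snrpn transcript (GRCm38.p6 chr7:60450128-60450427, minus strand).
Snurf and Snrpn start: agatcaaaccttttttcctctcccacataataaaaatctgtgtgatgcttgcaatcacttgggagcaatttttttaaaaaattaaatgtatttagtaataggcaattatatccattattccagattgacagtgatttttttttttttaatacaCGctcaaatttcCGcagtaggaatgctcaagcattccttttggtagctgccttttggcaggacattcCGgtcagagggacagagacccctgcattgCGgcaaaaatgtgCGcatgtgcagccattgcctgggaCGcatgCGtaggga
Snhg14 start: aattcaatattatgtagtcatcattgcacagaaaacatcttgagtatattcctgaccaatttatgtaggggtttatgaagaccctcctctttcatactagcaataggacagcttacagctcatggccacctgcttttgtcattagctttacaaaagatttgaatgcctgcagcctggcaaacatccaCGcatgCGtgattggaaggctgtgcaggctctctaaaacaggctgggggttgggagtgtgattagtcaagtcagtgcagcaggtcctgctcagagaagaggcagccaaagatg
The first window held 7 CG dinucleotides, and 52.1% of the 32851 RefSeq windows of this length held at least as many. The second held 2, and 85.9% of the windows held at least as many. The sequences of the probes themselves were not used here.

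The 163 probe sets were far fewer independent measurements than their number implies. Only 67 distinct profiles remained after probe sets with the same value on each of the 32 arrays were collapsed. A single profile was shared by 33 unnamed probe sets between 10563937 and 10564155, a second by 23 unnamed probe sets between 10564027 and 10564139, and another by 18 of the Snord116 probe sets between 10564163 and 10564207. In all, 113 probe sets shared 17 profiles and the other 50 had a profile of their own. The 24 Snord116 probe sets came to 7 profiles. Each shared profile is named here by its lowest identifier and counted once.

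Most of the run was bright in cerebellum and near the floor of the scale in blood. The median of the 67 profiles was between 2217 and 4750 on the 16 cerebellum arrays, against 0.219 to 17.96 on the 16 blood arrays. These are deposited PLIER intensities, linear values with no fixed unit, on which the median of all probe sets was 181 to 257 in cerebellum and 134 to 186 in blood. The median of 1035 olfactory receptor probe sets, genes that are silent in both tissues, was 45.6 to 178 in cerebellum and 51.9 to 76.5 in blood. Between 2 and 4 profiles lay under that olfactory receptor level on a cerebellum array, and between 56 and 65 on a blood array. No block value was below 1 in cerebellum, whereas 21.2% of the block values were below 1 in blood, against 2.23% for all probe sets. Ratios against blood values near 0 are therefore set by the floor of the scale, and the log2 differences between tissues of the named profiles are also given with 16 added to every intensity.

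**Figure D1:**
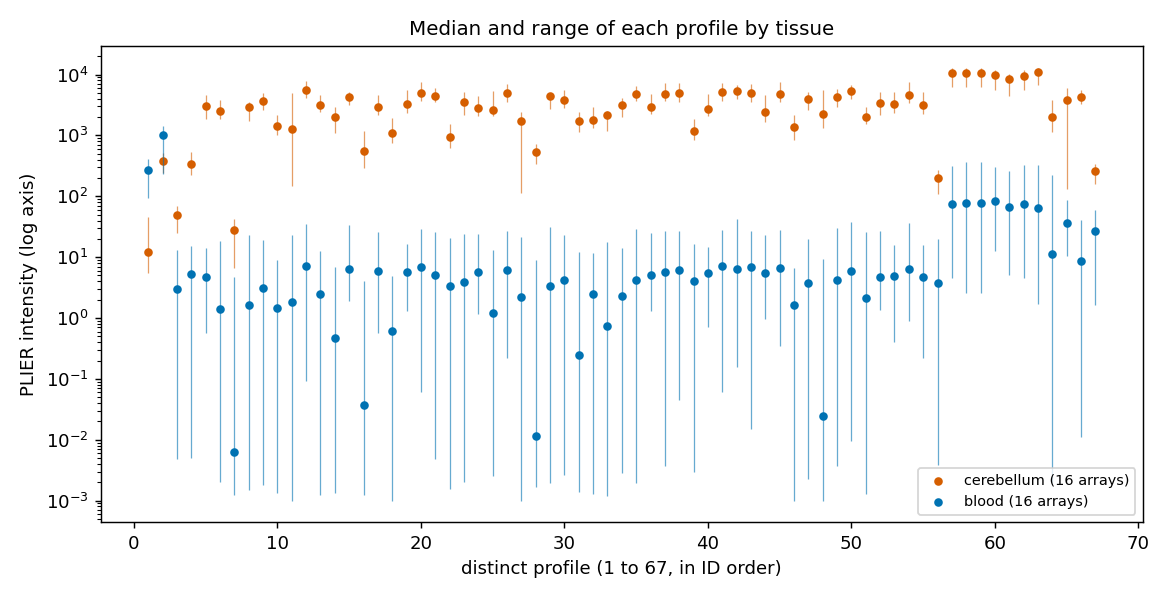
Median (point) and range (line) of the PLIER intensity, on a log axis, of each of the 67 distinct profiles over the 16 cerebellum arrays (orange) and the 16 blood arrays (blue), in identifier order. All but the first 2 profiles, 10563883 and 10563891, had a higher median in cerebellum.

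The unnamed profile shared by 33 probe sets, 10563937, averaged 5994 ± 1653 in Tsc2+/- cerebellum and 4569 ± 828 in WT cerebellum of that experiment (SD, n = 3 each), against 4.87 ± 1.84 and 11.3 ± 12.5 in the blood of the same mice. In the Fmr1 experiment it averaged 5028 ± 550 in Fmr1-KO cerebellum and 4726 ± 586 in WT cerebellum (SD, n = 5 each), against 13.1 ± 9.05 and 11.3 ± 10.03 in blood. The log2 difference, cerebellum minus blood, was 9.49 ± 0.79 (SE) in the Fmr1 mice and 9.77 ± 0.46 in the Tsc2 mice (limma with Benjamini-Hochberg adjustment over all 35556 probe sets, adjusted p = 2.18e-09 and 7.25e-09). With 16 added before the logarithm the differences were 7.495 and 7.80.

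All 67 profiles passed an adjusted p of 0.05 between tissues in the Fmr1 experiment, 65 of them, or 161 probe sets, higher in cerebellum; over the whole array 71.8% of probe sets passed, 51.8% higher and 20% lower in cerebellum. In the Tsc2 experiment 66 profiles passed, 65 of them higher in cerebellum, against 57.4% of all probe sets, 31% higher and 26.4% lower. The median log2 difference over the profiles was 9.45 over the Fmr1 mice and 9.82 over the Tsc2 mice, against 0.52 and 0.03 over all probe sets, and 6.84 and 7.33 with 16 added. Within a mouse, 65 or 66 of the 67 profiles were higher in its cerebellum than in its blood, in each of the 16 mice.

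The Snord116 probe sets were well above the olfactory receptor level in cerebellum and on both sides of it in blood. In cerebellum the shared profile 10564163 was at 11769, 11936 and 8166 in the Tsc2+/- mice and at 12313, 10000 and 9471 in their WT mice. In blood of the same mice it was at 35.2, 17.7 and 16.3 in the Tsc2+/- mice and at 296, 2.58 and 47.3 in the WT mice. A single WT blood array thus stood well above the other 5. Over the Fmr1 experiment, blood values ran from 52.0 to 372 in Fmr1-KO mice (median 81.5) and from 55.6 to 302 in WT mice (median 155), overlapping widely. The difference between tissues was 6.195 ± 0.37 (SE) in the Fmr1 mice and 8.62 ± 0.88 in the Tsc2 mice (limma, adjusted p = 1.68e-11 and 5.51e-06), and 5.999 and 7.65 with 16 added. Summed neuronal markers (7 of 7 measured) ran in blood from 149 to 255 in Tsc2+/- and 178 to 232 in WT mice, and from 94.9 to 976 in Fmr1-KO and 93.5 to 871 in WT mice, against 29570 to 49125 in cerebellum. Snap25, a synaptic protein gene and 1 of these markers, reached 498 in the blood of an Fmr1-KO mouse; the part of neuronal RNA in the blood values was not tested.

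The row for Snurf and Snrpn, 10564211, followed the same tissue pattern. It was at 4291, 4626 and 5568 in Tsc2+/- cerebellum and at 4219, 5301 and 4388 in WT cerebellum of that experiment, and at no more than 41.0 on any blood array. Its tissue difference was 10.69 ± 1.30 (SE) in the Fmr1 mice and 8.53 ± 0.22 in the Tsc2 mice (limma, adjusted p = 4.81e-07 and 6.62e-11), and with 16 added it was 7.35 and 7.34, so its size without the added 16 was set by blood values under the olfactory receptor level.

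Profiles at the start of the run went the other way. Probe set 10563883, named for Depdc1a, a gene of dividing cells, averaged 12.6 ± 3.36 in Tsc2+/- cerebellum and 9.47 ± 4.64 in WT cerebellum, against 135 ± 37.1 and 237 ± 66.5 in blood (SD, n = 3 each). Its tissue difference was -4.35 ± 0.23 in the Fmr1 mice and -4.07 ± 0.33 in the Tsc2 mice (SE; limma, adjusted p = 2.78e-12 and 7.21e-07), and -3.26 and -2.84 with 16 added. A second Depdc1a probe set far away in the identifier order, 10497122, averaged 13.02 ± 3.50 and 9.84 ± 4.88 in the same 2 cerebellum groups and 142 ± 39.4 and 249 ± 69.0 in blood. The unnamed 10563891 was at 241 to 508 in cerebellum and at 231 to 1444 in blood; its difference of -1.65 ± 0.11 passed in the Fmr1 experiment (adjusted p = 8.49e-11), while -0.55 ± 0.32 in the Tsc2 experiment did not (adjusted p = 0.164, limma). With 16 added these were -1.60 and -0.54.

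The ends of the identifier range were checked against what lies just outside. Before the first member came Gabra5 (10563872), a GABA-A receptor subunit gene of the same chromosome region, with 94.2 to 682 in Tsc2+/- cerebellum and 100.2 to 657 in WT cerebellum. After the last member, 10564220 (Gkap1, 234 to 324 in Tsc2+/- and 248 to 333 in WT cerebellum), came A230006K03Rik (10564222), with 213 to 320 in Tsc2+/- and 156 to 235 in WT cerebellum. In all 3 the 2 genotypes overlapped.

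In Tsc2+/- cerebellum, 2 bright unnamed probe sets were far lower while their neighbours were not. Member 161, which lies between the Snord116 probe sets and the Snurf and Snrpn probe set in identifier order, was at 145, 132 and 144 in the 3 Tsc2+/- mice, against 3727, 3690 and 5969 in the 3 WT mice. The 10 cerebellum arrays of the Fmr1 experiment, not used to choose it, held 2001 to 4705 in Fmr1-KO mice and 2467 to 5022 in WT mice. All 3 Tsc2+/- values thus lay below the other 13 cerebellum arrays, by 31.1-fold against their own WT mice (log2 difference -4.96).

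Member 36 was at 114, 161 and 197 in Tsc2+/- cerebellum, against 1704, 1839 and 1802 in WT cerebellum, which is 11.6-fold lower (log2 difference -3.54). The Fmr1 experiment gave 944 to 2064 in Fmr1-KO mice and 1168 to 2406 in WT mice. For members 161 and 36 the Tsc2+/- values stayed above the olfactory receptor medians of those arrays, 46.8 to 59.0. Another probe set, 10563901, was dim throughout, with 6.60, 7.16 and 8.95 in Tsc2+/- mice against 30.8, 39.2 and 31.95 in WT mice, 4.50-fold lower. All of its values lay below the olfactory receptor median of their own array, and with 16 added to the intensities its log2 difference of -2.17 became -1.08.

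**Figure D2:**
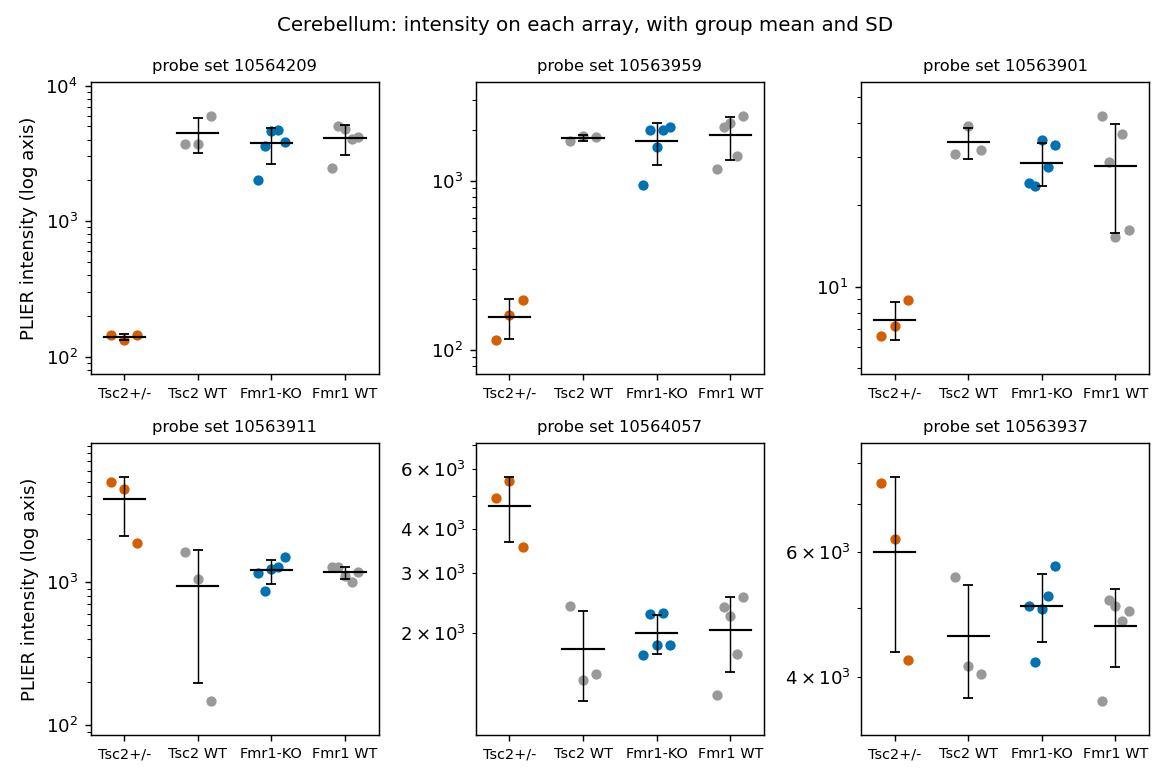
PLIER intensity (log axis) of 6 probe sets on each cerebellum array, in Tsc2+/-, Tsc2 WT, Fmr1-KO and Fmr1 WT mice, with the group mean and SD. The upper panels show member 161, member 36 and 10563901, in that order, and in each the 3 Tsc2+/- points lie under all other points; below, for 10563911 and 10564057 they lie above them, and for 10563937, the profile of 33 probe sets, the groups overlap.

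Such falls were rare among bright probe sets in these arrays, in a count made after the values were seen. Of the 4978 probe sets at 1000 or more on each of the 3 WT arrays, 2 were lower by over 8-fold in Tsc2+/- cerebellum, and these were members 161 and 36. The largest fall among bright probe sets outside the run was -1.32 (log2), in the unnamed probe set 10343947, and 5 in all fell by over 2-fold, among them Dusp1, a stress-induced phosphatase gene, at -1.04. This count is fixed by the choice of the run and tests nothing.

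A few profiles were higher in Tsc2+/- cerebellum, with more spread. Probe set 10563911 was at 4989, 4480 and 1876 in Tsc2+/- mice against 1621, 1051 and 147 in WT mice (log2 difference 2.46, 5.51-fold). Its Fmr1 experiment values were 860 to 1500 in Fmr1-KO and 1005 to 1284 in WT mice, so the value of 147 in Tsc2 WT mouse 3 was far below all other cerebellum arrays. Without that mouse the log2 difference was 1.41. Probe set 10564057 was at 4932, 5528 and 3566 against 2402, 1461 and 1528 (log2 difference 1.39, 2.63-fold). Probe set 10563949 was at 5277, 5185 and 3191 against 3071, 2238 and 2265 (log2 difference 0.83, 1.78-fold). For these 3 the Tsc2+/- values were above the other 13 cerebellum arrays, narrowly for 10563949 (3191 against at most 3071). How many of all probe sets did the same was not counted.

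Across the run, 54 of the 67 profiles were higher and 13 lower in Tsc2+/- cerebellum, where 45.7% of all probe sets were higher, with a median log2 difference of 0.35 against -0.02 over all probe sets. That median was 0.20 without Tsc2+/- mouse 1 and 0.56 without Tsc2+/- mouse 3. The remaining 62 profiles were within 2-fold, from -0.56 to 0.83. The groups did not overlap for 7 profiles on the higher side and 3 on the lower side, where 3.07% and 7.19% of all probe sets did the same. The small median rise was carried by the unnamed profiles, 51 of 57 of which were higher, with a median of 0.37. The 7 Snord116 profiles ran from -0.06 to 0.02, and the Snurf and Snrpn probe set overlapped between genotypes.

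The rise was not even over mice. The median of the 67 profiles was 4750, 4509 and 2942 in the 3 Tsc2+/- cerebella, against 3494, 2637 and 2579 in the WT cerebella. Mouse 3 of the Tsc2+/- group thus lay within the WT range. For the profile of 33 probe sets, 10563937, the values were 7502, 6254 and 4226 in Tsc2+/- mice against 5523, 4148 and 4036 in WT mice, and for the profile of 23, 10564027, they were 6849, 6060 and 4004 against 5817, 4601 and 4574. The genotypes overlapped in both. Choroid plexus marker sums also differed between these mice, with 2211 to 18528 over the 5 markers in Tsc2+/- cerebellum and 2535 to 17384 in WT cerebellum, and neuronal marker sums ran from 37413 to 40676 and from 36530 to 40242. The erythroid and platelet sums did not overlap between genotypes, in opposite directions. Erythroid sums (3 of 8 markers measured) ran from 236 to 290 in Tsc2+/- and from 311 to 348 in WT cerebellum. Platelet sums (4 of 5) ran from 239 to 271 and from 214 to 236. Leukocyte sums (10 of 11) ran from 740 to 808 and from 640 to 768. Among all single probe sets, 7.19% did not overlap on the lower side and 3.07% on the higher side. No erythroid, platelet or leukocyte marker was called or had an unadjusted p under 0.01 (limma). The part of tissue composition in the values was not tested, and in whole tissue fewer cells of a type and less RNA per cell cannot be told apart.

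**Figure D3:**
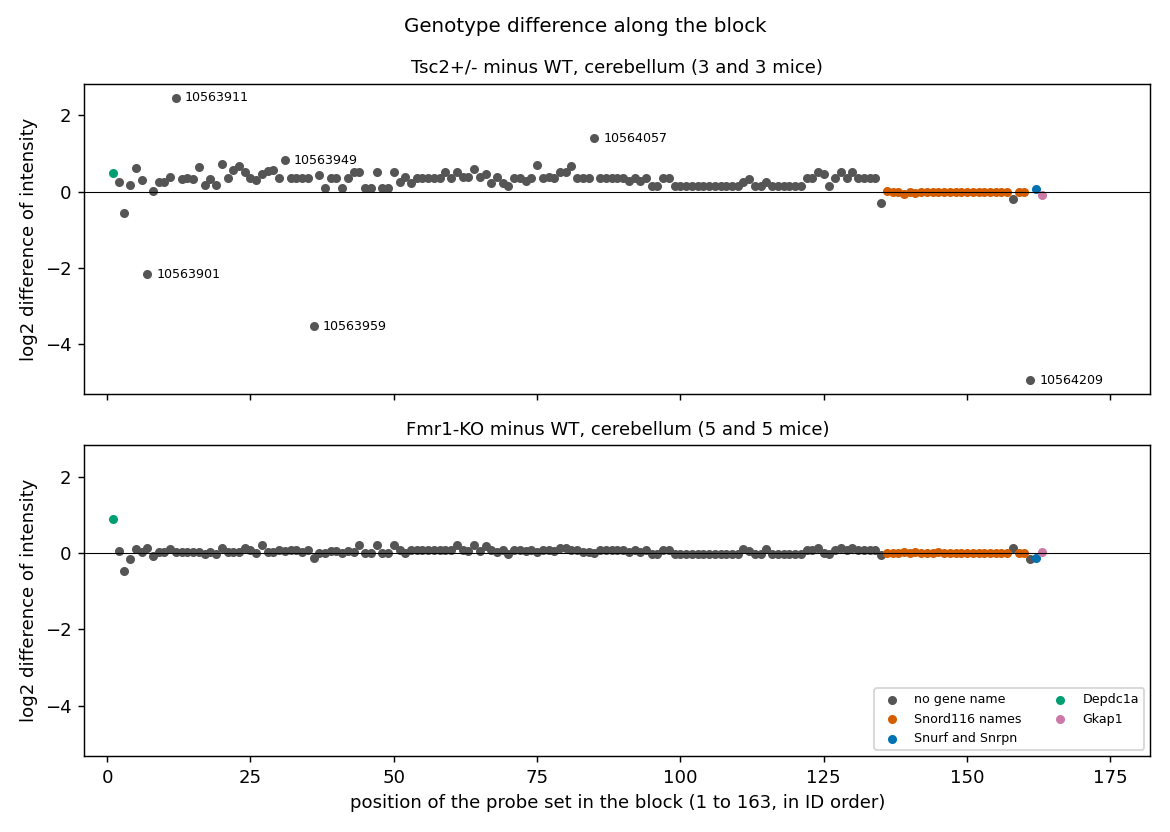
Log2 difference of mean intensity for each of the 163 probe sets in identifier order, Tsc2+/- minus WT (top, 3 and 3 mice) and Fmr1-KO minus WT (bottom, 5 and 5 mice), cerebellum, coloured by annotation. In the top panel the points at -4.96, -3.54 and -2.17 stand far below a band of unnamed probe sets just above 0, and the Snord116 probe sets lie at 0; the bottom panel has no such points.

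In Fmr1-KO cerebellum no member of the run was called against WT. No probe set of the array passed an adjusted p of 0.05 in that comparison (limma, 0 of 35556, 0%). Fmr1 itself was thus not called either, although its values did not overlap (142 to 306 in Fmr1-KO and 832 to 917 in WT mice). The absence of calls therefore does not show that the run was unchanged. At an unadjusted p of 0.05, 592 probe sets passed (1.66%), and 1 of them was in the run. The profile median was 0.04 (log2), against 0.02 over all probe sets. Of the 67 profiles, 55 were higher and 12 lower in Fmr1-KO cerebellum, where 53.8% of all probe sets were higher. A one-sided count of profiles was thus not particular to Tsc2+/- cerebellum. Member 161 was at 2001, 3562, 4651, 4705 and 3868 in Fmr1-KO mice and at 2467, 5022, 4808, 4048 and 4185 in WT mice, a difference of -0.15 ± 0.27 (SE, adjusted p = 0.999). Member 36 was at 944, 1997, 1568, 1977 and 2064 in Fmr1-KO mice and at 1168, 2070, 2180, 1404 and 2406 in WT mice, a difference of -0.11 ± 0.27 (SE, adjusted p = 0.999). In both probe sets, mouse 1 was the lowest of its group in both genotypes. The single probe set under an unadjusted p of 0.05 was Depdc1a (10563883), at 11.1 to 45.0 in Fmr1-KO mice and 7.26 to 12.2 in WT mice, a difference of 0.90 ± 0.35 (SE, unadjusted p = 0.0271, limma).

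The cerebellum array of Fmr1-KO mouse 1 had a raised background, with an olfactory receptor median of 178 where the other 15 cerebellum arrays had 45.6 to 92.8. In Fmr1 WT mouse 1 the median of the run was 2217, below the 3089 to 3275 of the other 4 WT mice. With both mice left out, a choice made after seeing the data, the profile median of the genotype difference was -0.01 and again no member was called.

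**Figure D4:**
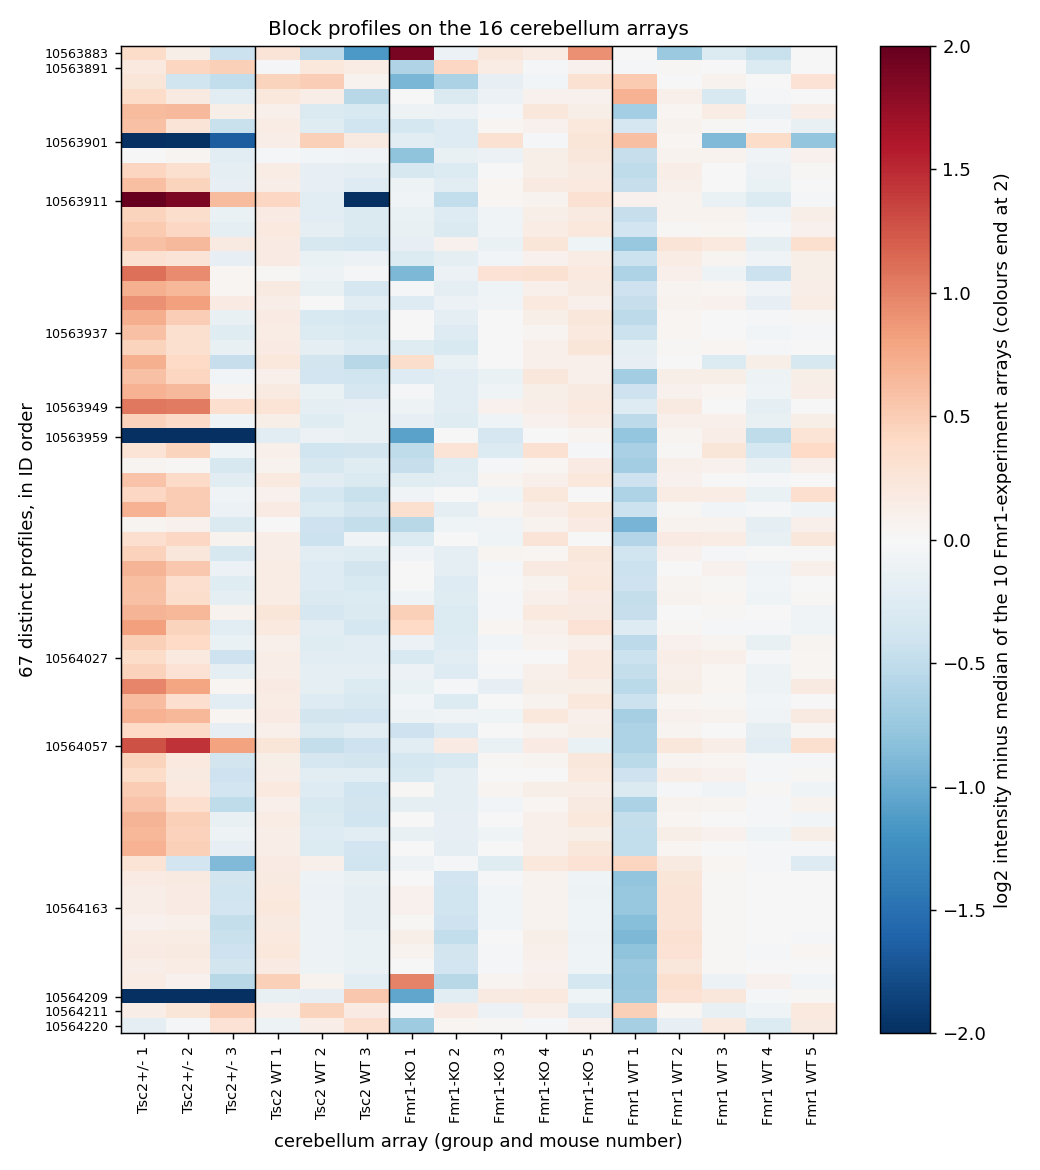
Log2 intensity of the 67 distinct profiles (vertical axis, in identifier order) on the 16 cerebellum arrays (horizontal axis: Tsc2+/-, Tsc2 WT, Fmr1-KO, Fmr1 WT), relative to each profile's median over the 10 arrays of the Fmr1 experiment; colours end at 2. The 3 dark blue lines in Tsc2+/- mice are 10563901, member 36 and member 161, and the pale blue column is Fmr1 WT mouse 1.

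The profiles tended to move together from mouse to mouse. Over the 10 cerebellum arrays of the Fmr1 experiment, which the choice of the run did not use, the median Pearson r of a profile with the median of all profiles was 0.86, and 43 of 67 exceeded 0.8. A few profiles went the other way, most of all the Snurf and Snrpn probe set at -0.72, followed by 10563895 at -0.55. Of the 10 arrays, that of Fmr1 WT mouse 1 held both the highest Snurf and Snrpn value, 5417, and the lowest run median, 2217. These arrays share their normalization and differ in background, as given above, so the values are descriptive. Outside the run, the 5 probe sets most like its median over all 16 cerebellum arrays had r of 0.82 to 0.84, and 1 of them had a gene name, ND3, a mitochondrial subunit of respiratory complex I. Over all 32 arrays the most similar were A2m, Prex2, Plppr4, Igsf21 and Tmem178 with r of 0.98 to 0.99, over arrays of 2 tissues that differ in most of these values.

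The WT mice of both experiments were compared because the strains differ, although the Tsc2 WT arrays also entered the comparison that chose the run. In cerebellum no member passed an adjusted p of 0.05 (limma), where 0.00562% of all probe sets did, and none had an unadjusted p under 0.05, where 8.19% of all probe sets did. Member 161 differed by 0.12 ± 0.26 (SE, Tsc2 WT minus Fmr1 WT, adjusted p = 0.862), and member 36 by 0.0017 ± 0.24 (adjusted p = 0.998). The largest difference was that of 10563911, -0.88 ± 0.67 (adjusted p = 0.610). Without Tsc2 WT mouse 3 this difference was 0.17.

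In blood, genotype differences were sought among values that mostly lay under the olfactory receptor level. No member passed an adjusted p of 0.05 in Tsc2+/- blood (limma, 0% of all probe sets passed) or in Fmr1-KO blood (0.00844% passed). At an unadjusted p of 0.01, 3 profiles (4 probe sets) were lower in Tsc2+/- blood, where 0.127% of all probe sets were, and in all 3 the genotypes did not overlap, as in 2.02% of all probe sets on the lower side. Among them was member 36, at 1.97, 1.00 and 0.682 in Tsc2+/- blood against 5.02, 21.1 and 5.17 in WT blood, a log2 difference of -2.89 ± 0.69 (SE, adjusted p = 1.000). All 6 values were far below the olfactory receptor medians of 52.3 to 60.0 on these arrays. The profile 10563915, shared by 2 probe sets, was at 0.00545, 0.00219 and 0.00122 against 12.5, 8.56 and 2.89 (adjusted p = 0.0894). Member 161 was at 31.9, 11.5 and 13.4 in Tsc2+/- blood against 79.4, 23.2 and 19.1 in WT blood, a difference of -0.94 ± 0.67 (SE, adjusted p = 1.000), with overlapping groups.

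Between Tsc2 WT and Fmr1 WT blood no member was called, where 0.132% of all probe sets were (limma). The Snord116 profile 10564163 was at 296, 2.58 and 47.3 in Tsc2 WT mice against 282, 302, 155, 55.6 and 72.2 in Fmr1 WT mice. Neither the interaction of Fmr1 genotype with tissue nor that of genotype with model in blood gave a called member, where 0.00844% and 0.00281% of all probe sets were called. With both tissues of a mouse in 1 fit, 0.00281% of all probe sets were called for Fmr1-KO, and no member. For Tsc2+/- 0% of all probe sets were called, and so no member. That fit holds the cerebellum arrays that chose the run, so its count is a description and no test of the run.

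Other genes of the imprinted region were taken from a list, of which 5 of 14 had a probe set with a single name outside the run. None of these 5 was called between genotypes in either model or tissue; in Tsc2+/- cerebellum 9 of 35556 probe sets (0.0253%) were called in all. Ndn, a paternally expressed gene of neurons, averaged 5242 ± 1910 in Tsc2+/- and 4450 ± 777 in WT cerebellum (SD, n = 3 each), a difference of 0.19 ± 0.28 (SE, limma, adjusted p = 0.946). Magel2, a ubiquitin ligase regulator, differed by 0.07 ± 0.22 and Mkrn3, a zinc finger protein gene, by -0.04 ± 0.19, with adjusted p of 0.976 and 0.983. Ndn was higher in cerebellum than in blood by 9.46 ± 1.13 (log2 ± SE) in the Fmr1 mice and 7.60 ± 0.61 in the Tsc2 mice (adjusted p = 3.58e-07 and 7.55e-07), and Mkrn3 by 2.22 ± 0.37 and 1.57 ± 0.18, while Magel2 was lower by 0.36 and 0.49 in cerebellum (adjusted p = 0.000827 and 0.00742). Atp10a was lower in cerebellum in the Tsc2 mice (-1.04 ± 0.305, limma, adjusted p = 0.0125) and did not pass in the Fmr1 mice (0.07 ± 0.10, adjusted p = 0.507). Peg12 passed in neither the Fmr1 mice (0.04 ± 0.10, limma, adjusted p = 0.693) nor the Tsc2 mice (-0.13 ± 0.13, adjusted p = 0.419). With 16 added, the Ndn differences were 7.10 and 6.72, and those of Mkrn3 were 1.52 and 1.18. None of 8 measured genes flanking the region passed between genotypes.

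The proteins that bind box C/D snoRNAs also did not pass between genotypes. Fbl, the methyltransferase, averaged 2154 ± 83.6 in Tsc2+/- and 2345 ± 84.5 in WT cerebellum (SD, n = 3 each), a difference of -0.12 ± 0.11 (SE, limma, adjusted p = 0.926). Nop56 differed by -0.15 ± 0.13, Nop58 by -0.18 ± 0.13 and Snu13 by 0.32 ± 0.21, with adjusted p of 0.926 to 0.928. Of 51 other snoRNA genes with a single-name probe set, none was called in Tsc2+/- cerebellum, and their median difference was 0.04. Between tissues 41 of the 51 were higher in cerebellum and 3 lower in the Fmr1 experiment, where 51.8% and 20% of all probe sets were, and 31 were higher and 5 lower in the Tsc2 experiment, where 31% and 26.4% were. With 16 added, their median differences were 1.05 and 0.67, against 6.84 and 7.33 for the run. The lists were chosen with earlier results known, and their genes were measured by different probes, so these medians are set side by side without a test.

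The targeted genes followed the labels in part. Fmr1 was at 142 to 306 in Fmr1-KO cerebellum against 832 to 917 in WT cerebellum. Tsc2 was at 713 to 999.5 in Tsc2+/- cerebellum against 1110 to 1176 in WT cerebellum, without overlap. In blood Tsc2 was at 621 to 890 in Tsc2+/- mice against 731 to 1008 in WT mice, which overlap. The mice are labelled female and described as male in the study's methods, and Kdm5d and Eif2s3y, both on the Y chromosome, were at 226 or more on all 32 arrays while Xist did not exceed 106.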

How the data were processed

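The deposited values were PLIER intensities that the authors made with Affymetrix Power Tools, with quantile normalization of probes over all arrays; the genome build is not given in the sources used here. They are linear, with no fixed unit, and the number of arrays limits the precision. Gene names came from the platform annotation, in which 21789 probe sets had 1 name, 1621 several and 12146 none, and were updated through RefSeq. Each comparison was fitted on log2 intensity with no offset for all 35556 probe sets with limma 3.58.1 in R 4.3.3 (lmFit and eBayes), over the arrays of the groups compared, with Benjamini-Hochberg adjustment; a call is an adjusted p under 0.05, and an unadjusted p under 0.01 is the threshold of the study's methods. Tissue comparisons had tissue and genotype as terms and no mouse term, so they did not use the pairing of tissues within a mouse. The labels tie both tissues to a mouse, and a random block for the mouse was fitted as an alternative (within-mouse correlation 0.00817 and 0.0607). Same-numbered mice of 2 genotypes were not paired. The fits were tested on simulated data.

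The members and the gene lists were chosen with earlier results of these data known. The text names the 2 probe sets of the rule (member 36 is 10563959 and member 161 is 10564209), the 3 largest rises and falls, the largest shared profiles, members with a gene name, the ends of the range and the most similar probe sets outside it. Where a gene had several probe sets, the brightest was used. Nothing says that the mice came from separate litters, so p-values measure the spread between these mice. Alternatives changed the offset, filter, normalization, model and replicates; members were also compared as all rows, profiles and named rows. No columns of authors' comparisons were present.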

Additional observations from a re-analysis of the deposited data

Results flagged for a closer look

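In groups of 5 mice, 13 of 56 checked groups of values held a sample far from the other 4. This was judged by the gap to its nearest neighbour over the range of the group, on linear intensities. Chance flags about 1 in 20 groups of independent, normally distributed values. Blood values near the floor are not so distributed, and the groups share mice and related profiles. The count of 13 of 56 can therefore not be set against that rate. Most were blood values under background. Fmr1 WT mouse 5 stood highest in blood for member 36 (7.03, the other 4 from 0.001 to 0.0039), 10564057 (5.87, the others up to 1.51), 10563937 (28.9, the others 4.75 to 9.75) and 10564027 (28.6, the others 5.04 to 9.68). For 10563901, Fmr1-KO mouse 1 had 3.36 in blood and Fmr1 WT mouse 1 had 4.74, each with the other 4 mice near 0. For 10563911, Fmr1-KO mouse 4 had 23.0 in blood against 0.854 to 3.86 in the others. The Snurf and Snrpn probe set 10564211 was highest in the blood of Fmr1-KO mouse 3 (41.0, the others up to 5.64) and of Fmr1 WT mouse 1 (37.0, the others up to 10.3). These were the 2 Fmr1-experiment mice with the highest Snap25 in blood, at 498 and 110. The Snord116 profile 10564163 did not single them out. It was at 372 and 357 in the blood of Fmr1-KO mice 3 and 4, and at 282 and 302 in Fmr1 WT mice 1 and 2. The part of neuronal RNA in these values was not tested.

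In cerebellum, Fmr1 WT mouse 1 was lowest for 10563937 (3701, the others 4800 to 5139) and for the median of the 67 profiles (2217, the others 3089 to 3275). Fmr1 WT mouse 4 was lowest for 10563891 (302, the others 359 to 372), and Fmr1-KO mouse 1, the array with raised background, for 10564220 (162, the others 261 to 280).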

How the results depend on the processing

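In Tsc2+/- against WT cerebellum, whose values chose the run, the number of members past an adjusted p of 0.05 is fixed by that choice and supports nothing. It was 3 in the fit used, 0 in a linear model without eBayes, 0 by the methods' t-test, 1 with all 32 arrays in 1 fit, 1 with the replicate block of mouse numbers, and 0 to 2 when 1 mouse was left out. It fell to 0 without Tsc2 WT replicate 2 and to 1 without Tsc2+/- replicate 2 or without Tsc2 WT replicate 1 or 3. The median over the 10 named profiles was -0.0063, where it was 0.35 over all 67. In Tsc2+/- blood 2 members were called, in place of none, with all 32 arrays in 1 fit and with the replicate block; the block changed no other call. Same-numbered mice of 2 genotypes shared only a number, with correlations of their deviations of -0.09 to 0.23. With both tissues, 1 member was called for Tsc2+/- after a filter on dim probe sets and 1 with all 32 arrays. That comparison also holds the cerebellum values that chose the run, so these counts support nothing either.

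Between Tsc2 WT and Fmr1 WT blood the called members numbered 1 after quantile normalization within tissues, 4 with all 32 arrays, and 0 to 2 with 1 mouse left out (1 without Fmr1 WT replicate 5 or Tsc2 WT replicate 3, and 2 without Tsc2 WT replicate 1). Its median of -0.28 became -2.845 after normalization within tissues and -1.741 both after the filter on dim probe sets and over the named profiles, and the difference of 10563961 reversed to -0.16 after normalization within tissues. Between tissues the median was 6.84 with 16 added and 6.17 over named profiles in the Fmr1 experiment, and 7.33, 8.405 and, after normalization within tissues, 13.02 in the Tsc2 experiment.

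Small differences changed sign. With 1 mouse left out, Fmr1-KO minus WT cerebellum ranged from -0.26 to 0.088 for member 36, from -0.32 to 0.063 for member 161 and from -0.25 to 0.0045 for 10563895. The same comparison of member 161 lay between -0.17 and 0.54 in blood and, with both tissues, between -0.15 and 0.30. Tsc2 WT minus Fmr1 WT cerebellum ranged from -0.15 to 0.11 for member 36, which was -0.062 after normalization within tissues, from -0.11 to 0.24 for member 161 and from -1.57 to 0.17 for 10563911. In blood that difference ranged from -0.92 to 0.11 for member 161. The causes were not tested.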
